A study of Mus musculus with 12 samples.

Results

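Transcript levels of 10 genes used to define or to follow periosteal and skeletal stem cells were examined: *Nt5e*, *Lepr*, *Grem1*, *Cxcl12*, *Pdgfra*, *Thy1*, *Eng*, *Ly6a*, *Mcam* and *Prrx1*. They were chosen by symbol, and each had a row in all tables: 10 of 53715 genes in the table of 5 libraries of periosteal stem cells (PSCs), 10 of 48709 in the separate table of the PSC library control 3, and 10 of 46517 in the osteoclast table. PSCs were sorted from Prmt5flox/Δ Ctsk-Cre CAG-CAT-EGFP mice (cKO, 3 libraries) and from Prmt5flox/+ Ctsk-Cre CAG-CAT-EGFP mice (control, 3 libraries), C57BL/6 mice of 3 to 6 weeks, 3 animals in each group by the study's methods. Both groups carried the Cre, which is driven by *Ctsk* and acts in osteoclasts as well as in PSCs, and the EGFP reporter, and controls kept 1 functional *Prmt5* allele beside the floxed one. Osteoclasts, 3 libraries from Prmt5flox/Δ Ctsk-Cre mice (also called cKO, with no reporter named) and 3 from control mice, were grown from bone marrow of 11-week-old mice and collected 72 h after RANKL. The sources used here give neither the genotype of the osteoclast controls nor whether each library came from a separate culture or mouse, so p-values there measure the spread between libraries. By the study's methods the PSC gate took cells without Ter119, CD45, CD31, 6C3, CD90.2 and CD105 and with CD51 and CD200, and the purity after the sort was not determined. The study used EGFP to detect the periosteal progenitors, which it describes, after an earlier report, as positive for Ctsk. The gate listed for the sort does not name EGFP.

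Skeletal stem and progenitor cells have no single defining transcript and are recognised by combinations of surface proteins, secreted niche factors and transcription factors. In the periosteum, the outer sheath of bone, such cells supply osteoblasts for growth in width and for fracture repair, while stromal cells of the marrow that carry the leptin receptor and make CXCL12 form the niche of blood stem cells. 2 of the 10 genes encode proteins on which the sort selected against a cell, *Thy1* (CD90) and *Eng* (CD105), and the other 8 were not part of the gate.

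The 250 bases before the transcription start are shown for the chemokine gene *Cxcl12* and the TGF-β co-receptor gene *Eng*, whose fitted differences had opposite signs in cKO PSCs. Sequences are those of RefSeq on GRCm38.p6, plus strand, 5′ to 3′, with the GC box (GGGCGG or its complement CCGCCC, overlapping matches counted) in capitals.
Cxcl12, chr6:117168285-117168534: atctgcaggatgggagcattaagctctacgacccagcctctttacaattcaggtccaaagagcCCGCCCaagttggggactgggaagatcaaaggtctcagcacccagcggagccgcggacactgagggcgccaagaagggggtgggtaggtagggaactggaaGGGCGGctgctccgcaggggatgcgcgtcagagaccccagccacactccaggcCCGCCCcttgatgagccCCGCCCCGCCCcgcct
Eng, chr2:32646345-32646594: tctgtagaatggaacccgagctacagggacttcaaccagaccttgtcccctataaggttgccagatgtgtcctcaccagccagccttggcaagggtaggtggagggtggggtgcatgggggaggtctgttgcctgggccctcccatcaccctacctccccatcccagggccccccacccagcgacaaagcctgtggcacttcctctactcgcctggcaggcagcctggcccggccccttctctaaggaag
The *Cxcl12* window held 5 GC boxes, 14 CpG dinucleotides and 64.4% G and C, and the *Eng* window held 0 GC boxes, 4 CpG dinucleotides and 62.4% G and C. Of 32851 RefSeq promoter windows of the same length, 32.7% held a GC box, and the median window had 6 CpG dinucleotides and 52.4% G and C. Windows were found for 8 of the 10 genes, with 2 start sites for *Lepr*. *Mcam* held 5 GC boxes, *Nt5e* 4, *Grem1* 3 and the second *Lepr* start 1, while *Pdgfra*, *Prrx1* and the first *Lepr* start held 0. The windows of *Mcam*, *Nt5e*, *Prrx1* and both *Lepr* starts overlapped an exon annotated in GENCODE. Those of *Nt5e* and the second *Lepr* start lay inside the annotated gene. Those of *Mcam*, *Prrx1* and the first *Lepr* start reached past the first annotated start into the gene. None of these windows is thus wholly upstream of every annotated start. TATAAA, read on both strands, was in none of the 9 windows and in 12.4% of all windows. These matches describe letters in the windows only.

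PSC levels are given in RPKM, reads scaled to exon length and to the mapped reads of the library. Mapped reads, as implied by the RPKM worth of 1 read, were between 9932976 and 13928745 in cKO libraries and between 6958265 and 11376003 in control libraries, and total counts of the osteoclast libraries were between 984885 and 3608940. Across genes control 3, which has a table of its own, had correlations of 0.842 to 0.860 with the other PSC libraries, which correlated with each other at 0.948 to 0.982. Because of the separate table the test was made on cKO 1 to 3 and control 1 and 2, by limma on log2(RPKM + 1) over the 11045 genes whose mean reached 1 RPKM, a scale on which differences of genes near 1 RPKM are compressed. Fits with all 6 libraries are given beside it. *Prmt5* measured 8.40, 6.31 and 8.08 RPKM in the PSC libraries labelled cKO, against 6.29, 8.31 and 4.32 RPKM in those labelled control, so these values do not check the PSC labels, on which every direction given for PSCs rests. In osteoclasts *Prmt5* was lower in cKO libraries, at 28.8, 37.8 and 35.3 CPM, against 58.5, 71.7 and 67.6 CPM in control libraries (log2 fold change -1.01, SE 0.160, adjusted p = 0.0349 by edgeR), without overlap between the groups. Without cKO 1, cKO 3, control 2 or control 3 the log2 fold change was -0.85, -1.04, -0.94 and -0.99 and the adjusted p was 0.103, 0.132, 0.281 and 0.116. Transcripts tied to sex also differed between libraries. The Y-linked gene *Ddx3y* measured 22.3, 23.9 and 4.71 RPKM in cKO PSCs, against 16.5, 1.56 and 0 RPKM in control PSCs, and *Xist* had 1506 reads in osteoclast control 3 and at most 1 in each of the other 5 osteoclast libraries. The part of sex in the results was not tested.

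*Nt5e* and *Ly6a* were the most abundant of the 10 transcripts in sorted PSCs, and *Thy1* was the least abundant in the mean of both groups. *Nt5e* lay between the percentiles 93.2 and 95.8 of detected genes in every library, *Ly6a* between 90.9 and 96.5, and *Thy1* between 7.83 and 50.9. By mean RPKM the order in cKO PSCs was *Nt5e*, *Ly6a*, *Pdgfra*, *Lepr*, *Prrx1*, *Cxcl12*, *Eng*, *Grem1*, *Mcam* and *Thy1*. The ranges of the neighbours *Pdgfra* and *Lepr*, *Lepr* and *Prrx1*, *Cxcl12* and *Eng*, *Grem1* and *Mcam*, and *Mcam* and *Thy1* overlapped. In control PSCs the order was *Ly6a*, *Nt5e*, *Pdgfra*, *Cxcl12*, *Prrx1*, *Lepr*, *Eng*, *Mcam*, *Grem1* and *Thy1*, with all neighbours overlapping except *Nt5e* and *Pdgfra*, *Prrx1* and *Lepr*, and *Lepr* and *Eng*.

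**Figure D1:**
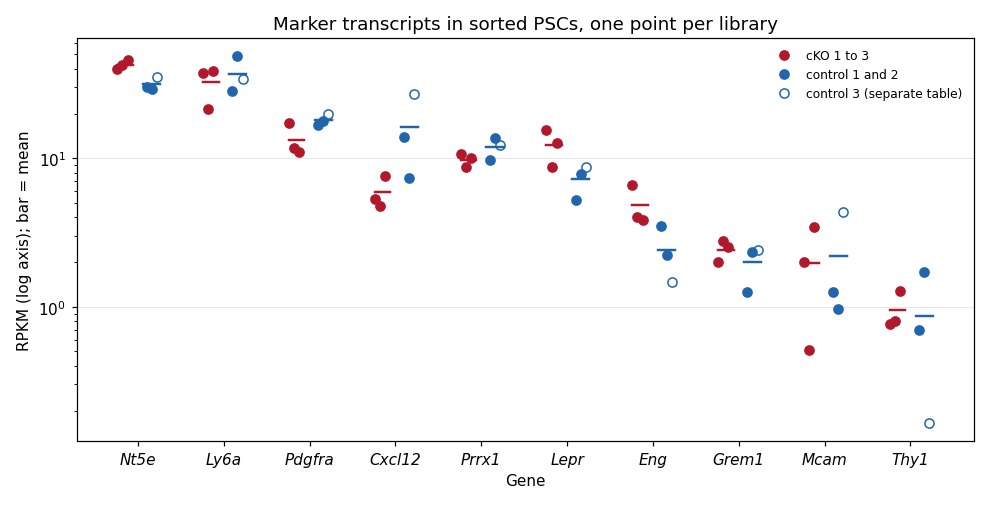
RPKM of the 10 marker genes on a log axis, one point per sorted PSC library, with cKO libraries in red to the left of control libraries in blue and bars at the means of 3 libraries each. Open circles are control 3, which was deposited in a separate table. For *Nt5e* the cKO libraries sit between 39.7 and 45.7 RPKM, above the controls at 29.3 to 35.4 RPKM.

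None of the 10 markers passed an adjusted p of 0.05 between cKO and control PSCs, where 8.37% of all genes tested did (772 higher and 153 lower, 6.99% and 1.39%). At that share, none passing among 10 genes does not set the markers apart from other genes. 4 of the 10, *Nt5e*, *Lepr*, *Cxcl12* and *Eng*, had an unadjusted p under 0.05, against 27.1% of all genes tested. The fitted difference was positive for 5 markers and negative for 5, with a median of 0.08 on the log2 scale, against a median of 0.14 over all genes tested. With DESeq2 size factors in place of the deposited scaling, the median of all genes was -0.002, and the share of called genes that were higher in cKO PSCs was 59.5% in place of 83.5%. No marker changed sign under that scaling over the 5 libraries. In bulk libraries such as these, fewer cells of a type and less RNA per cell cannot be told apart. Groups did not overlap in the 5 libraries for *Nt5e*, *Lepr* and *Eng*, all 3 higher in cKO libraries, whereas 45.8% of all genes tested did not overlap (35.6% higher and 10.2% lower).

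*Nt5e*, which encodes CD73, the cell-surface enzyme that turns AMP into adenosine, had the smallest p of the 10. It measured 39.7, 42.8 and 45.7 RPKM in cKO PSCs, against 30.2, 29.3 and 35.4 RPKM in control PSCs. Every cKO library lay above every control library, control 3 included. The log2 fold change was 0.51 (SE 0.125, 95% interval 0.21 to 0.80, adjusted p = 0.0538) over the 5 libraries and 0.43 (SE 0.145, interval 0.08 to 0.77, adjusted p = 0.207) over all 6. A limma fit with a variance trend, chosen after seeing the data, called it at an adjusted p of 0.0303 and called 10.1% of all genes. The same fit over all 6 libraries gave an adjusted p of 0.164. With DESeq2 size factors the difference was 0.34 (adjusted p = 0.158). The exon length of *Nt5e* was 5222 bases in the table of control 3. For the other 5 PSC libraries no length was given, and 5413 bases was inferred as a length that makes reads whole. Scaled to mapped reads as CPM, *Nt5e* had 215, 232 and 247 CPM in cKO PSCs, against 163, 158 and 185 CPM in control PSCs, again without overlap. The reads of those 5 libraries were recovered with the inferred length, so their CPM still depends on it. An exact permutation test over the 6 libraries gave a two-sided p of 0.1, the smallest that 3 against 3 libraries allow.

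*Lepr*, which encodes the leptin receptor and marks stromal cells of adult marrow, measured 15.5, 8.68 and 12.7 RPKM in cKO PSCs, against 5.21, 7.82 and 8.75 RPKM in control PSCs. The 2 cKO libraries with the highest values lay above all controls, and cKO 2 lay just under control 3. Its log2 fold change was 0.81 (SE 0.253, interval 0.21 to 1.41, adjusted p = 0.0975), 0.66 with size factors (adjusted p = 0.147) and 0.68 over all 6 libraries (adjusted p = 0.250). *Cxcl12*, the chemokine that holds blood stem cells in the marrow niche, measured 5.29, 4.78 and 7.61 RPKM in cKO PSCs, against 14, 7.32 and 27.2 RPKM in control PSCs. Its controls spread widely, and cKO 3 lay just above control 2. The fitted difference was -0.72 (SE 0.279, interval -1.38 to -0.06, adjusted p = 0.155), -0.87 with size factors (adjusted p = 0.125) and -1.16 over all 6 libraries (adjusted p = 0.239). On whole reads recovered from the RPKM steps, the quasi-likelihood test of edgeR gave -1.04 and an adjusted p of 0.0498, where 6.56% of 13975 genes passed, and without control 1 the limma difference was -0.29 (adjusted p = 0.552). The fitted differences of *Lepr* and *Cxcl12*, which many marrow stromal cells express together, thus had opposite signs, and whether they differed from each other was not tested.

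Of 10 further marrow stroma markers, limma tested 6 and called none, 0 of them with an unadjusted p under 0.05, and their median difference was 0.00. The smallest p-values were those of *Kitl*, *Foxc1*, *Vcam1* and *Csf1* (log2 fold changes -0.18, 0.13, 0.15 and -0.09). Their summed level was 52.7 to 61.1 RPKM in cKO PSCs and 52.2 to 70.9 RPKM in control PSCs. The adipokine gene *Adipoq*, which defines such cells, had no read in cKO 1, control 2 and control 3 and at most 0.125 RPKM in the others. *Lpl* was 24.8 RPKM in control 3, the library with the most *Cxcl12*, and 7.44 to 10.9 RPKM in the other 5 libraries.

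*Pdgfra* and *Prrx1*, both of mesenchymal cells, were detected in every PSC library, and neither passed the test. *Pdgfra*, the receptor for platelet-derived growth factor A found on many mesenchymal progenitors, measured 17.4, 11.7 and 11.0 RPKM in cKO PSCs, against 16.7, 17.9 and 20 RPKM in control PSCs. cKO 1 lay among the controls and the other 2 cKO libraries below them. The difference was -0.37 on the log2 scale (SE 0.201, interval -0.84 to 0.10, adjusted p = 0.283). *Prrx1*, a homeobox transcription factor of limb mesenchyme, measured 10.7, 8.75 and 9.98 RPKM in cKO PSCs, against 9.77, 13.8 and 12.2 RPKM in control PSCs. The groups overlapped, with a log2 fold change of -0.23 (SE 0.172, interval -0.63 to 0.18, adjusted p = 0.435). *Grem1*, which encodes the secreted BMP antagonist gremlin and marks osteochondroreticular stem cells of the metaphysis, stayed low at 1.99, 2.79 and 2.51 RPKM in cKO PSCs, against 1.25, 2.32 and 2.43 RPKM in control PSCs. Its difference was 0.32 (SE 0.198, interval -0.15 to 0.79, adjusted p = 0.341), with 115 to 121 exon reads per cKO library and 59 to 104 per control library.

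*Ly6a* encodes Sca-1, a surface protein of mouse stem and progenitor cells in several tissues. It measured 37.4, 21.6 and 38.7 RPKM in cKO PSCs, against 28.3, 48.7 and 34.2 RPKM in control PSCs. The lowest value was in cKO 2 and the highest in control 2, and the other libraries overlapped. Its log2 fold change was -0.23 (SE 0.310, interval -0.96 to 0.50, adjusted p = 0.672), and it was positive without cKO 2 (0.03) or without control 2 (0.15). *Ly6a* belongs to a family of similar genes, and the sources used here do not say how reads shared between them were counted. *Mcam*, which encodes CD146 of pericytes, endothelium and marrow stroma, measured 1.99, 0.511 and 3.42 RPKM in cKO PSCs, against 1.26, 0.968 and 4.38 RPKM in control PSCs. The lowest value was in a cKO library and the highest in a control library. Its log2 fold change was 0.36 (SE 0.401, interval -0.58 to 1.31, adjusted p = 0.596) over 5 libraries and -0.09 (adjusted p = 0.945) over all 6.

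**Figure D2:**
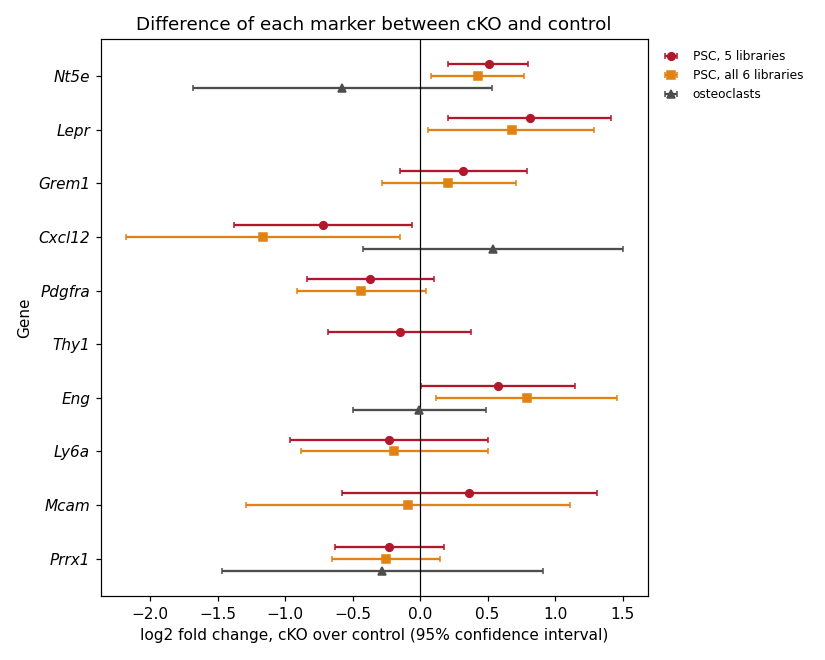
Log2 fold change of each marker, cKO over control, with 95% confidence intervals. Circles are PSCs with 5 libraries, squares PSCs with all 6 libraries and triangles osteoclasts, for the 4 markers that passed the count filter. *Thy1* has no square because its mean fell under 1 RPKM, and the PSC intervals of *Nt5e*, *Lepr*, *Cxcl12* and *Eng* leave out 0 before adjustment.

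The genes of the sort itself were compared to see what the gate left. *Thy1*, the gene of a surface glycoprotein absent from sorted cells by the gate, measured 0.768, 0.796 and 1.28 RPKM in cKO PSCs, against 0.695, 1.72 and 0.166 RPKM in control PSCs. These are 17 to 32 exon reads per cKO library and 2 to 40 per control library, the 2 reads being those of control 3. Over the 5 libraries the difference of -0.15 (SE 0.226, interval -0.68 to 0.38, adjusted p = 0.704) was not separable from 0. The exon length of *Thy1* was 1735 bases for control 3, and 2150 bases was inferred for the other PSC libraries. The RPKM of control 3 is thus scaled to another length, and the read counts of the others depend on the inferred one. *Eng*, the co-receptor for TGF-β and BMP9 that is abundant on endothelium, measured 6.62, 4.0 and 3.85 RPKM in cKO PSCs, against 3.52, 2.22 and 1.46 RPKM in control PSCs. All cKO libraries lay above all controls. The fitted difference was 0.58 (SE 0.242, interval 0.01 to 1.15, adjusted p = 0.180), 0.45 with size factors (adjusted p = 0.318) and 0.79 over all 6 libraries (SE 0.281, adjusted p = 0.226), and it was 0.37 (adjusted p = 0.323) without cKO 1 and 0.33 (adjusted p = 0.545) without control 2. The exact permutation p over 6 libraries was 0.1. With *Nt5e*, it was one of 2 markers whose groups did not overlap in all 6 libraries, both higher in cKO PSCs, against 26.9% of the 10943 genes tested there (20.1% higher).

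2 other genes whose proteins the gate selected against passed the test. *Pecam1* (CD31 of endothelium) rose to 6.72, 3.24 and 3.31 RPKM in cKO PSCs, against 0.672, 0.537 and 0.233 RPKM in control PSCs. On the log2 scale the difference was 1.70 (SE 0.267, adjusted p = 0.0151), and 1.83 over all 6 libraries (adjusted p = 0.0351), where 1.52% of genes passed. Each control lay under the filter of 1 RPKM, so *Pecam1* was tested only through its cKO values. Limma did not call it with no filter on low values (adjusted p = 0.0865). Nor did limma with a replicate block (adjusted p = 0.0671, and 0.141 over all 6 libraries). The call was lost without control 1 (adjusted p = 0.0883) or control 2 (0.0792), and it held without cKO 1, which had the highest value (1.42, adjusted p = 0.0173). *Enpep* (6C3, an aminopeptidase of stromal and B lineage cells) rose to 7.22, 5.11 and 7.97 RPKM in cKO PSCs, against 2.39, 3.41 and 1.92 RPKM in control PSCs. Its log2 fold change was 0.99 (SE 0.204, adjusted p = 0.0332), and 1.12 over all 6 libraries (adjusted p = 0.0694), so that this call rested on the 5 libraries. It was also lost without cKO 1, cKO 3, control 1 or control 2, with adjusted p-values of 0.0885, 0.0958, 0.160 and 0.0742. *Ptprc* (CD45 of blood cells) stayed under the filter, at 0.782 to 1.02 RPKM in cKO PSCs and 0.619 to 1.14 RPKM in control PSCs. Of the genes the gate selected for, *Itgav* (CD51) and *Cd200* did not pass, with log2 fold changes of -0.18 (adjusted p = 0.388) and 0.00 (adjusted p = 0.991), nor did *Ctsk* (-0.07, adjusted p = 0.768), whose promoter drives the Cre. *Ctsk* was at 157 to 181 RPKM in cKO PSCs and 156 to 192 RPKM in control PSCs.

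**Figure D3:**
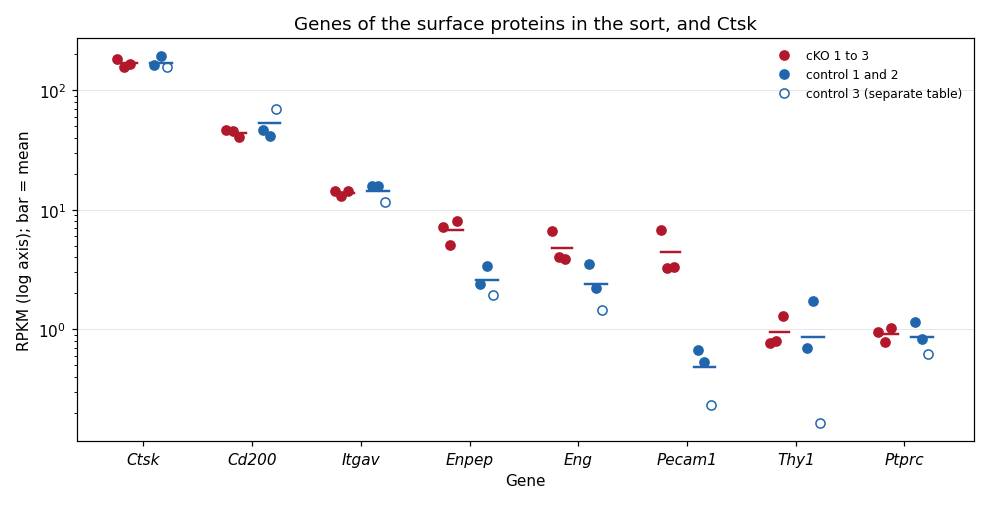
RPKM on a log axis of the genes whose proteins the sort selected for (*Cd200*, *Itgav*) or against (*Enpep*, *Eng*, *Pecam1*, *Thy1*, *Ptprc*) and of *Ctsk*, one point per PSC library, cKO left of control, with bars at the means. *Pecam1* and *Enpep* are higher in each cKO library than in each control library, while *Ctsk* overlaps at 157 to 181 RPKM in cKO and 156 to 192 RPKM in control libraries.

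Markers of other cells were summed beside these genes. The 10 endothelial markers summed to 8.88 to 22.3 RPKM in cKO PSCs, highest in cKO 1, and to 2.39 to 7.47 RPKM in control PSCs. Without *Pecam1* the other 9 summed to 15.6, 5.64 and 7.54 RPKM in cKO PSCs, against 6.80, 1.85 and 2.48 RPKM in control PSCs, so that cKO 2 lay under control 1 and the groups overlapped. *Eng*, like both sums, was highest in cKO 1. Of them 3 were tested, *Pecam1* passed, and *Egfl7* (0.49, adjusted p = 0.149) and *Esam* (0.79, adjusted p = 0.285) did not. *Cdh5*, which defines endothelium, measured 1.35, 0.407 and 0.594 RPKM in cKO PSCs, against 0.648, 0.110 and 0 RPKM in control PSCs. *Emcn* and *Cldn5* had no read in controls 2 and 3. Control 3, the PSC library with the fewest mapped reads, also had none of *Tek*, *Tie1*, *Egfl7* and *Flt1*. In control 1, however, *Emcn* (0.455 RPKM), *Tek* (0.560 RPKM), *Tie1* (0.626 RPKM) and *Cldn5* (1.06 RPKM) lay within the range of the cKO libraries. *Kdr* was lowest in cKO 2, at 0.0446 RPKM, against 0.472 to 0.662 RPKM in control PSCs. The 10 pericyte and smooth muscle markers summed to 56.1 to 82.8 RPKM in cKO PSCs and to 42.9 to 221 RPKM in control PSCs. The highest sum was in control 3, the library with the most *Mcam*, where *Myh11* reached 31.6 RPKM. Of this list 7 were tested and none passed, with the smallest p-values for *Cspg4* (0.62, adjusted p = 0.0657), *Abcc9* (-0.44), *Mylk* (-0.55) and *Tagln* (0.84). Of 9 tested blood cell genes 3 passed, the hemoglobin genes *Hba-a2*, *Hbb-bs* and *Hba-a1* (log2 fold changes 3.63, 3.33 and 3.02), but none of these over all 6 libraries, and *Hbb-bs* was 479 RPKM in control 3. The sum of the blood list was 1195 to 2190 RPKM in cKO PSCs and 1048 to 1649 RPKM in control PSCs. The part of such cells or transcripts in the marker differences was not tested.

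**Figure D4:**
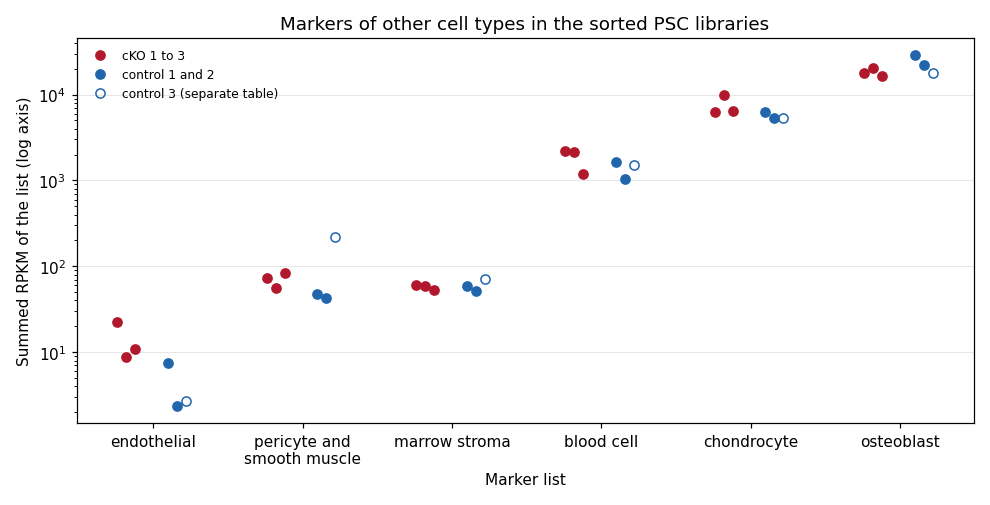
Summed RPKM of 6 marker lists of other cell types on a log axis, one point per PSC library, cKO left of control. Endothelial markers sum to 8.88 to 22.3 RPKM in cKO and 2.39 to 7.47 RPKM in control libraries, but overlap without *Pecam1* at 5.64 to 15.6 RPKM in cKO and 1.85 to 6.80 RPKM in control libraries, and control 3 (open circle) has the highest pericyte and smooth muscle sum at 221 RPKM.

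Ligands, receptors and signalling partners of the 10 markers were measured too. Of 20 such genes 14 were tested by limma and none passed, 0 of them with an unadjusted p under 0.05, with 8 positive and 6 negative differences and a median of 0.00. The smallest p-values were those of the kinase gene *Jak2*, which signals from the leptin receptor (-0.24, adjusted p = 0.256), of *Pdgfrb* (-0.30, adjusted p = 0.325), and of the TGF-β family receptors *Tgfbr2* (0.21, adjusted p = 0.347) and *Acvrl1* (0.19, adjusted p = 0.382). *Ackr3*, a scavenging receptor for CXCL12, was at 9.44 to 15.9 RPKM in cKO PSCs and 12.5 to 19.3 RPKM in control PSCs, whereas *Cxcr4*, its signalling receptor, was under the filter at 0.278 to 1.03 RPKM in cKO PSCs and 0.486 to 0.715 RPKM in control PSCs. *Lep*, the ligand of the leptin receptor, had no read in any PSC library. Among 20 other genes used as markers of skeletal stem cells 12 were tested, and *Postn*, which encodes periostin of the periosteal matrix and which the study singled out in these libraries, was the only one to pass. It fell to 188, 240.0 and 196 RPKM in cKO PSCs, against 488, 521 and 737 RPKM in control PSCs (log2 fold change -1.28, SE 0.149, adjusted p = 0.00638, and -1.47 with an adjusted p of 0.0334 over all 6 libraries), and without control 1 its adjusted p was 0.0507. *Gli1* (0.52, adjusted p = 0.0617), *Cd34* (0.82, adjusted p = 0.0873) and the osteoblast factor *Sp7* (-0.69, adjusted p = 0.107) came next.

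The tables also give, for each gene, the share of its reads that lie in introns, a readout of unspliced RNA. It was tested by limma on log2 odds because loss of PRMT5 is known to disturb splicing. None of the 10 markers passed, and 1 of 10697 genes did (0.00935%). 1 of the 10, *Thy1*, had an unadjusted p under 0.05, against 16.6% of all genes tested. The intron share of *Thy1* was 28.1, 22.7 and 31.9% in cKO PSCs, against 15.0, 6.98 and 0% in control PSCs. The fit over 5 libraries gave a difference of 1.67 log2 odds (SE 0.444, adjusted p = 0.195). It rested on 5 to 15 intron reads per cKO library and 3 in each of controls 1 and 2. Control 3, with 0 intron reads, was not in that fit. *Pdgfra* showed 7.90, 8.62 and 6.68% in cKO PSCs, against 5.80, 5.62 and 2.72% in control PSCs. Its difference over 5 libraries was 0.43 (SE 0.217, adjusted p = 0.406), from 92 to 209 intron reads in cKO libraries and 117 and 115 in controls 1 and 2. Control 3, outside that fit, had 39. *Thy1*, which was not among the genes tested with all 6 libraries, and *Pdgfra* did not overlap in the 6 libraries. Of the 9 markers tested there *Pdgfra* was the only one without overlap, against 20.4% of 10439 genes. In the 5 libraries *Grem1* did not overlap either, and was lower in cKO PSCs at 5.74, 4.96 and 1.63%, against 13.2 and 7.14% in controls 1 and 2, with 9 reads or fewer in each, where 34.4% of genes did not overlap. It was 0% in control 3. *Nt5e* overlapped, at 5.40, 9.73 and 4.39% in cKO PSCs, against 9.94, 9.28 and 9.44% in control PSCs (-0.65, adjusted p = 0.488). The share of *Prrx1* was 20.4 to 27.6% in cKO PSCs and 18.9 to 21.0% in control PSCs. Its span holds exons of other annotated genes outside its own, *Gm20471* (626 bases), *Gm26523* (1658 bases) and *Gm37644* (2270 bases), the last 2 on the same strand, and their part in this share was not tested. *Eng* measured 15.7 to 24.9% in cKO PSCs, against 19.0, 17.1 and 55.4% in control PSCs. Annotated genes lie within the span of some markers, and the sources used here do not state whether counting used strand. In GENCODE on GRCm38, the protein-coding *Fpgs* shares 61 exon bases with *Eng* on the opposite strand, the antisense gene *Gm42802* shares 456 with *Pdgfra*, and *Gm10687* shares 17 with *Mcam*, and without strand reads from these stretches could not be assigned to either gene. The span of *Pdgfra* also holds exons of *Gm42803* (451 bases, 166 of them shared, opposite strand) and *Mir7025* (74 bases, 30 of them shared, same strand). That of *Eng* holds *Mir1954* (86 bases), *Gm47291* (65 bases) and *Gm26236* (137 bases) outside its exons, on the same strand. The part of these genes in the intron shares was not tested. *Thy1* (chromosome 9, 44043384 to 44048579) and *Mcam* (chromosome 9, 44134469 to 44142727) lie 85.9 kb apart and share no exon bases.

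Osteoclast cultures contained few transcripts of the markers, with the exception of *Eng*. Summed over 6 libraries there were 322 reads of *Eng*, 126 of *Cxcl12*, 66 of *Prrx1*, 57 of *Nt5e*, 31 of *Pdgfra*, 30 of *Mcam*, 20 of *Lepr*, 19 of *Grem1*, 15 of *Ly6a* and 12 of *Thy1*. For a comparison between genes and cell types, osteoclast CPM was divided by exon length, with a denominator of counted rather than mapped reads. On this scale 7 of the 10 markers were higher in every PSC library than in every osteoclast library. The share of all genes that separate in this way was not determined, so this count does not set the markers apart from other genes. *Nt5e* was 29.3 to 45.7 RPKM in PSCs and 0.322 to 1.39 CPM per kb in osteoclasts, and *Pdgfra* was 11.0 to 20 RPKM in PSCs and 0 to 0.301 CPM per kb in osteoclasts. *Eng*, *Mcam* and *Thy1* overlapped, *Eng* at 1.46 to 6.62 RPKM in PSCs and 4.12 to 7.74 CPM per kb in osteoclasts. These levels come from tables made in different ways and were not tested.

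**Figure D5:**
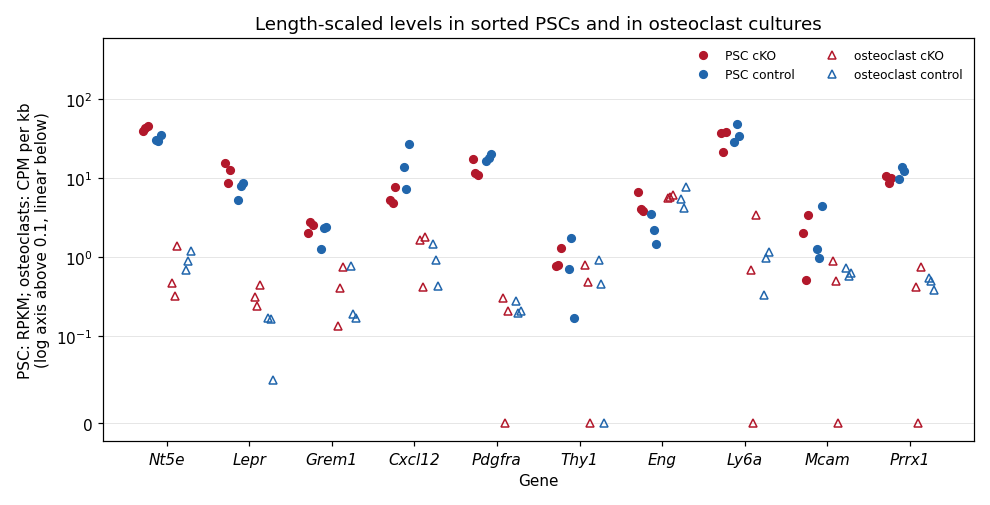
Length-scaled level of the 10 markers in PSCs (filled circles, RPKM) and osteoclast cultures (open triangles, CPM per kb), one point per library, cKO in red left of control in blue. The axis is logarithmic above 0.1 and linear below. *Eng* overlaps between the cell types, and *Nt5e* is 29.3 to 45.7 in PSCs and 0.322 to 1.39 in osteoclasts.

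Of the 10 markers 4 passed the count filter in osteoclasts and none of them was called by the quasi-likelihood test of edgeR, which called 4 of 10724 genes (0.0373%). 0 of the 4 had an unadjusted p under 0.05, and DESeq2 called none of the 10. *Eng* measured 22.5, 23.5 and 24.9 CPM in cKO osteoclasts, against 22, 16.7 and 31.3 CPM in control osteoclasts, with a log2 fold change of -0.01 (SE 0.234, interval -0.50 to 0.49, adjusted p = 0.997). *Cxcl12* measured 13.4, 3.36 and 14.5 CPM in cKO osteoclasts, against 12, 7.36 and 3.48 CPM in control osteoclasts (0.54, SE 0.455, adjusted p = 0.950). *Nt5e* had 9, 2 and 7 reads in cKO osteoclasts, against 9, 12 and 18 reads in control osteoclasts, and its log2 fold change was -0.58 (SE 0.523, interval -1.68 to 0.53, adjusted p = 0.950). *Prrx1* had 17, 0 and 8 reads in cKO osteoclasts, against 15, 14 and 12 reads in control osteoclasts (-0.28, SE 0.562, adjusted p = 0.970). Of the other 6 markers, *Lepr* had 8, 2 and 3 reads in cKO osteoclasts, against 3, 3 and 1 in control osteoclasts. Scaled to CPM its groups did not overlap, at 2.19, 1.68 and 3.12 CPM in cKO and 1.20, 1.16 and 0.348 CPM in control osteoclasts, where 10.6% of the genes tested did not overlap. Without the count filter its log2 fold change was 1.29 (adjusted p = 0.812), and none of the 10 passed. Whether the effect of the cKO on any marker differed between PSCs and osteoclasts was not tested. The 10 osteoclast markers summed to 25159 to 32267 CPM in cKO and 20778 to 31746 CPM in control cultures. Stromal transcripts were present as well, with 65 to 205 reads of *Col1a1* in cKO and 106 to 440 in control libraries, and the sum of 12 stromal genes was 249 to 761 CPM in cKO and 158 to 685 CPM in control osteoclasts. None of the 8 tested stromal genes passed, and their part in the marker reads was not tested. Among the partner genes 13 were tested and none passed, with the smallest p-values for *Tgfbr2* (0.27), *Adora2b* (-0.68), *Cxcr4* (0.39) and *Stat3* (0.12), each at an adjusted p of 0.950.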

How the data were processed

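RNA-seq libraries of sorted PSCs and of osteoclasts (3 cKO and 3 control of each) were made for the Ion Torrent Proton. Tools in the submitters' processing notes are kallisto 0.46.0, Trim Galore 0.6.4 and FastQC 0.1.1.8, with the build GRCm38, and the study used DESeq2. Which aligner gave the RPKM and intron tables is not stated in the sources used here. The authors deposited unnormalized gene counts of the osteoclasts. For PSCs the authors deposited RPKM, and beside it, per gene, the authors gave a ratio of intronic to total reads, with control 3 in a table of its own. Columns of the authors' own EDGE test in the osteoclast table (fold change, p-value and FDR) were not used.

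PSC differences were tested with limma 3.58.1 (R 4.3.3) on log2(RPKM + 1) without a variance trend, osteoclast counts with TMM and the quasi-likelihood test of edgeR 4.0.16 over genes kept by filterByExpr, and intron shares with limma on log2 odds (0.005 added to share and complement). All tests were two-sided with Benjamini-Hochberg adjustment over all genes tested, and intervals are 95% and unadjusted. Whole reads were recovered from the steps of the RPKM values within a tolerance of 0.02 for 100.0% of 26128 detected genes, with the exon length of the control 3 table for 85.5% of shared genes and, for the rest, a length chosen to make reads whole. Alternatives used DESeq2 1.42.0, other pseudocounts, filters and size factors, all 6 libraries, a replicate block, a variance trend and leaving out each library. Named genes are all 10 markers, the genes of the sort, and of each other list those that passed and up to 4 with the smallest p. *Lpl*, *Adipoq*, *Cdh5*, *Emcn*, *Cldn5*, *Tek*, *Tie1*, *Flt1*, *Kdr*, *Myh11*, *Ackr3*, *Cxcr4*, *Lep*, *Ibsp*, *Col2a1*, *Ddx3y* and *Xist* were added to the named genes once values were known. The markers, and the lists of sort genes, partners, other stem cell markers, marrow stroma, endothelial, pericyte, blood, osteoblast, chondrocyte, tendon, stromal, osteoclast, Ly6 and interferon genes, were chosen with earlier results of these data known.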

Additional observations from a re-analysis of the deposited data

How the results depend on the processing

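The count of genes called in PSCs, 925, was 166 with all 6 libraries, 140 with these and DESeq2 size factors, 207 with these and a variance trend and 125 with these and CPM without length. It was 388 with no filter, and with 1 library left out it was 93 (control 1), 267 (control 2), 320 (cKO 3), 400 (cKO 1) and 458 (cKO 2). Of the markers, 1 was called by edgeR on whole reads (*Cxcl12*) and 1 by the variance trend (*Nt5e*), and none under the other alternatives run. *Mcam* was -0.09 with all 6 libraries, with or without the variance trend, -0.15 with size factors and -0.14 without length. *Thy1* was 0.28 without length over 6 libraries, and *Ly6a* was -0.61 to 0.15 with 1 library left out.

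Osteoclast calls, 4 in all, numbered 46 without the filter and 0 to 9 with 1 library left out (0 without cKO 3 or control 2, 9 without cKO 1). The log2 fold change of *Eng* was then -0.20 to 0.27 and of *Prrx1* -0.67 to 0.15. The 1 intron call became 0 with all 6 libraries and 0 to 2 with 1 library left out (2 without cKO 1, 0 without cKO 3, control 1 or control 2), and the intron difference of *Grem1* was 0.11 with all 6 libraries.

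Between libraries of equal replicate number, deviations from the group means correlated at -0.0623 to -0.0161 in PSCs and -0.0716 to 0.0677 in osteoclasts. The control mean of PSCs included control 3, which correlated less with the other libraries. Pairing in PSCs could therefore not be judged from these values. With a replicate block 4 genes were called in PSCs (1 with all 6 libraries), 0 in osteoclasts and 0 for the intron share. *Mcam* was -0.09 with the block over 6 libraries, and *Eng* in osteoclasts 0.05. Low counts limit the osteoclast values, where 1 read is 0.274 to 1.04 CPM. The variance trend and the last 3 fits with 6 libraries were chosen after seeing the data.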

Other observations

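Other gene groups in the same PSC libraries are given as values. Of 9 osteoblast genes tested, 4 were lower in cKO PSCs over 5 libraries: *Dmp1* (log2 fold change -3.14), *Phex* (-2.21), *Col1a1* (-0.82) and *Col1a2* (-0.62). None of these passed over all 6 libraries, where *Col1a1* was 3104 RPKM in control 3. Of the 9 genes 2 had positive differences, *Ibsp* among them (0.86, adjusted p = 0.0725 by limma). *Ibsp* measured 3047, 4405 and 2788 RPKM in cKO PSCs, against 2197, 1538 and 4176 RPKM in control PSCs. Of 12 stromal genes tested 6 were lower over 5 libraries, *Postn*, *Lum*, *Col3a1*, *Col1a1*, *Col1a2* and *Col5a1*, and *Postn* alone over all 6. Of 10 chondrocyte genes 1 was higher, the matrix gene *Matn3* (1.16, adjusted p = 0.0345, and 0.0760 over all 6 libraries). *Col2a1*, the main collagen of cartilage, was 3715 to 6705 RPKM in cKO PSCs and 1582 to 3873 RPKM in control PSCs. Among 9 tendon and fibroblast genes tested none passed, and *Cd34* had the smallest p.

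Of the relatives of *Ly6a*, 7 members of the Ly6 family were tested and *Ly6k* was higher in cKO PSCs (1.65, 2.19 and 1.45 RPKM, against 0, 0.447 and 0 RPKM in control PSCs, log2 fold change 1.19, adjusted p = 0.0173). *Ly6d* (0.77), *Ly6e* (0.53) and *Ly6c1* (0.34) did not pass. Each control value of *Ly6k* lay under the filter of 1 RPKM, so it was tested only through its cKO values, which are near that filter. Over all 6 libraries its mean fell under the filter, and limma called none of the 6 family members tested there. No interferon response gene of 8 tested passed (median 0.36), nor did any osteoclast gene of 5 tested in PSCs (median -0.06) or, by edgeR with the count filter, of 10 tested in osteoclasts (9 positive and 1 negative, median 0.21). The negative one was *Ctsk*, whose promoter drives the Cre. It measured 4483, 4644 and 4489 CPM in cKO osteoclasts, against 9119, 8509 and 5632 CPM in control osteoclasts (log2 fold change -0.77, SE 0.157, unadjusted p = 0.000141, adjusted p = 0.234 by edgeR). Its groups did not overlap, as for 10.6% of the genes tested. Without the count filter edgeR called 46 of 22836 genes, among them *Ctsk* (-0.79, adjusted p = 1.25e-07) and the fusion gene *Ocstamp* (0.51, adjusted p = 0.0127). With the filter the adjusted p of *Ocstamp* by edgeR was 0.876, so within edgeR both calls depended on the filter. DESeq2, also without that filter, called 3 genes.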
